A study of Mus musculus with 3 samples.

Results

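Ephrins and their Eph receptors were examined in cultured lymphatic endothelial cells, as 10 genes: the ligand genes Efnb1, Efnb2, Efna1 and Efna5 and the receptor genes Ephb2, Ephb3, Ephb4, Epha2, Epha3 and Epha4. They were taken by symbol among the 18194 genes that have a probe set of their own on the array. The platform annotation gave 23 probe sets to 9 of the 10 genes, and Ephb2 was not analysed here because no probe set carried its name alone. The cells were lymphatic endothelial cells of mouse skin, isolated by FACS from H-2Kb-tsA58 mice (ImmortoMice). Every cell of these animals carries a temperature-sensitive large T antigen, so the cells divide at 33 °C with interferon-gamma. Before RNA was taken they spent 3 days at 37 °C without interferon-gamma, which lets the T antigen be degraded. There was 1 group, imLEC, with 1 culture each at passages 13, 14 and 18 and 1 array per culture. All 3 cultures share the transgene and the shift to 37 °C, and no primary or non-immortalized cells were part of the samples, nor do the labels say how many animals the cells came from.

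Eph receptors are receptor tyrosine kinases that bind ephrins on the surface of neighbouring cells, and both partners signal into their own cell. Ephrins of the A class are held in the membrane by a lipid anchor and those of the B class by a transmembrane segment whose tail binds adaptor and PDZ-domain proteins. In blood vessels Efnb2 marks arteries and Ephb4, its main receptor there, marks veins. In the lymphatic system Efnb2 is needed for the sprouting and maturation of collecting vessels and for valve formation, and ephrin-B2 takes part in the uptake of the VEGF-C receptor Flt4 from the cell surface.

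Values are signal intensities on a linear scale or their log2, and a level is the mean ± SD over the 3 cultures (n = 3) of the log2 intensity of the probe set with the highest mean. Levels of different probe sets were not set against each other, because probe sets differ in how strongly they bind. A floor was set on each array from genes restricted to other tissues, at intensities of 46.3, 48.4 and 47.2 at passages 13, 14 and 18. Detected means above the floor in each of the 3 cultures, which held for 9116 genes (50.1%). By markers the cells were endothelial, with 10 of 10 pan-endothelial and 7 of 9 lymphatic genes detected. Prox1, the transcription factor of lymphatic identity, was above the floor on 2 of the 3 arrays, and 0 of 7 measured leukocyte markers were detected. The Gapdh control, a measure of RNA quality, had a 3'/5' signal ratio of 8.59, 7.10 and 19.4 at passages 13, 14 and 18, and that of the Actb control was 1.18, 1.20 and 1.42. Both were highest at passage 18, Gapdh by far more. Each passage is a single culture, so the spread within a passage is unknown and the differences below have no replicate check.

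Of the 9 measured genes 6 were detected, namely Efnb1, Efnb2, Efna1, Efna5, Ephb4 and Epha4. Ephb3 and Epha2 passed the floor at passages 13 and 18 but not at 14, and Epha3 was under it on every array. Of the 23 probe sets, 10 were above the floor on all 3 arrays, 5 on 1 or 2 arrays and 8 on none. Where a signal was under the floor, that probe set gives no reading of the transcript and sets no upper limit on it. At passage 18, for example, 1 Epha4 probe set read 364 and another 15.3.

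**Figure D1:**
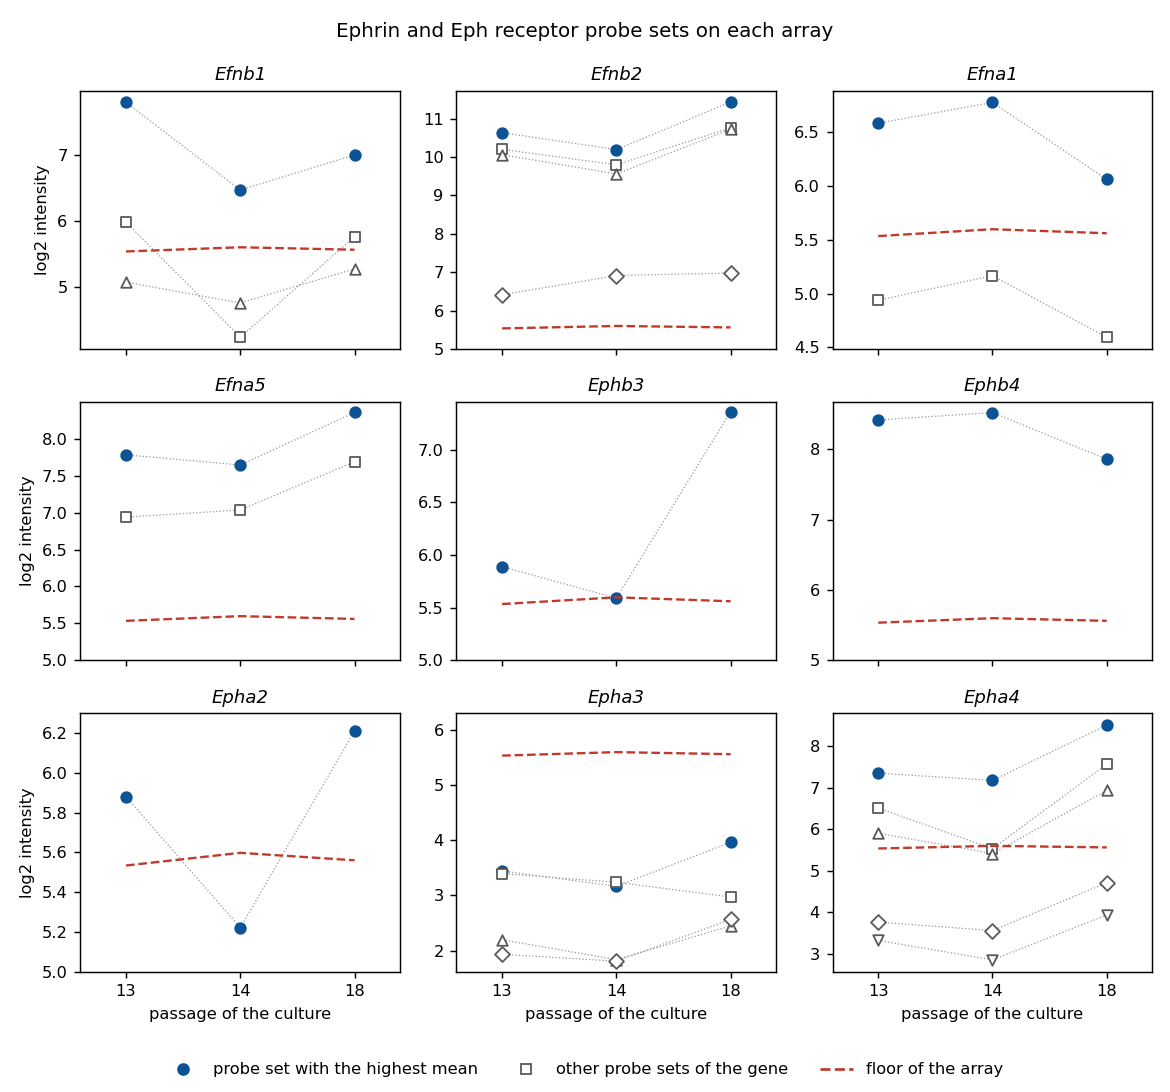
Log2 signal intensity (vertical axes, a scale of its own in each panel) of all 23 probe sets of 9 genes in the cultures of passages 13, 14 and 18 (horizontal axes). Filled points are the probe set with the highest mean, open points the other probe sets of the gene and the dashed line the floor of each array. All 4 Efnb2 probe sets lie above the floor, all 4 Epha3 probe sets lie below it, and 3 of the 5 Epha4 probe sets are above it at passage 18.

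The regulatory sequence just upstream of the start is shown for Efnb2 and Ephb4, the ligand and receptor of the artery and vein pair, which lay on opposite sides between passages 18 and 13, and for Epha4, the detected gene with the largest difference between those passages. Each is the 250 bases before the start of the RefSeq transcript (assembly GRCm38.p6), read 5′ to 3′ on the gene's strand, with capitals on GC boxes, the binding motif of Sp1-type factors (GGGCGG or its reverse complement CCGCCC).
Efnb2: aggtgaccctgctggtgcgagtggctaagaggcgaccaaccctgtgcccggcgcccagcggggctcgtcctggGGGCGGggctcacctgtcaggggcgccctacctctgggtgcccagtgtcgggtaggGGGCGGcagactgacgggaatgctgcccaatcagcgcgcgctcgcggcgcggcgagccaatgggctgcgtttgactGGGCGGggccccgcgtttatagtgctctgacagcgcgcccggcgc
Ephb4: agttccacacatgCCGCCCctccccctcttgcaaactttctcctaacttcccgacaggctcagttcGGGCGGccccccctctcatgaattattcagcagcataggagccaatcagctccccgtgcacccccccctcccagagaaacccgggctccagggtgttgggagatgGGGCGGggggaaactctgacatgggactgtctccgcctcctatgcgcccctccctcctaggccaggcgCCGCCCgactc
Epha4: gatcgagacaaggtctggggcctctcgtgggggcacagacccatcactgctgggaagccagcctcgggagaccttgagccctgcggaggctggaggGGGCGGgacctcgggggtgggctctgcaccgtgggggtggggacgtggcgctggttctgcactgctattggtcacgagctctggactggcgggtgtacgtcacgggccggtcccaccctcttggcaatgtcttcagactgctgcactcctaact
The Efnb2 window lies at chr8:8661243-8661492 on the minus strand, the Ephb4 window at chr5:137349859-137350108 on the plus strand and the Epha4 window at chr1:77515089-77515338 on the minus strand. The Efnb2 window holds 3 GC boxes, that of Ephb4 4 and that of Epha4 1. Among all 10 genes, 7 have a GC box in at least 1 window (8 of 11 windows), against 32.7% of the 32851 promoter windows of the same length in RefSeq. The windows of the 10 genes had a median GC content of 64.8%, against 52.4% over all windows. The RBPJ motif TGGGAA, which Notch signalling uses, was found on either strand in windows of Efnb1 and Epha4 (2 of 11), against 21.6% of all windows. The ETS motif CGGAAG was found in windows of Efna1 and Epha3 (2 of 11), against 13.6%. The FOX motif TGTTTAC, the AP-1 motif TGANTCA and the E-box CACGTG, on both strands, were found in 0 of the 11 windows, against 3.17%, 6.75% and 6.02% of all windows. Matches overlapped each other in 0 cases within the 11 windows, and a match describes letters only.

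Efnb2, the B-class ligand of arterial and lymphatic vessels, was above the floor by a wide margin and highest at passage 18. It read 1587, 1168 and 2760 at passages 13, 14 and 18, which is a level of 10.75 ± 0.63. Passage 14 was the lowest. The passage 18 culture exceeded that of passage 13 by 1.74-fold (log2 difference 0.80) and that of passage 14 by 2.36-fold (1.24). All 4 probe sets were higher at passage 18 than at 13, with log2 differences between 0.56 and 0.80. Between passages 14 and 13 they disagreed, with 3 lower at passage 14 and 1, the dimmest of the 4, higher there (log2 difference 0.50). That probe set read 85.1, 120 and 126 at passages 13, 14 and 18, and differed by 0.06 in log2 between passages 18 and 14.

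Efnb1, the other B-class ligand, was highest at passage 13 and lowest at passage 14. It read 223, 88.6 and 128 at passages 13, 14 and 18, a level of 7.09 ± 0.67. It was 2.52-fold lower at passage 14 than at 13 (log2 difference -1.33) and 1.74-fold lower at passage 18 than at 13 (-0.80). Its second probe set read 63.1, 18.8 and 54.1, above the floor at passages 13 and 18 only, and the third was under the floor on all arrays. Between passages 18 and 13 the first and second probe sets had log2 differences of -0.80 and -0.22.

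The A-class ligands were both detected and lay on opposite sides. Efna1, a ligand that in human endothelial cells is induced by tumour necrosis factor, read 95.9, 110 and 66.8 at passages 13, 14 and 18, a level of 6.47 ± 0.37. It was lowest at passage 18, 1.44-fold below passage 13 and 1.64-fold below passage 14. Its second probe set was under the floor on all arrays. Efna5, best known as a repulsive axon guidance ligand, read 220 at passage 13, 200.3 at passage 14 and 328 at passage 18, a level of 7.93 ± 0.38. The passage 18 value was 1.49-fold above that of passage 13 and 1.64-fold above that of passage 14. Both Efna5 probe sets were above the floor on every array and highest at passage 18, with log2 differences from passage 13 of 0.57 and 0.75.

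Ephb4, the venous receptor for Efnb2, was lowest at passage 18. Its single probe set read 341 at passage 13, 367 at passage 14 and 232 at passage 18, a level of 8.26 ± 0.36. The passage 18 value was 1.47-fold below that of passage 13 and 1.58-fold below that of passage 14, while passages 14 and 13 differed by 0.11 in log2. In the same comparison of passages 18 and 13 Efnb2 had a log2 difference of 0.80 and Ephb4 of -0.56. Neither reached 2-fold.

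Ephb3, a B-class receptor known for sorting cells along the intestinal crypt, read 59.2 at passage 13, 48.2 at passage 14 and 165 at passage 18, a level of 6.28 ± 0.95. The passage 14 value lay just under the floor of 48.4, and the passage 13 value was close to its own floor, at 1.28 times it. The passage 18 value was 2.78-fold above that of passage 13, and at least 3.40-fold higher than at passage 14 when the floor stands for the passage 14 value. It has only 1 probe set, so no second reading of that difference is at hand.

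Among the A-class receptors Epha4 was the only one detected. Epha4, which is unusual in binding ligands of both classes, read 163 at passage 13, 144 at passage 14 and 364 at passage 18, a level of 7.68 ± 0.72. At passage 18 it was 2.23-fold above passage 13 and 2.52-fold above passage 14. Of its 5 probe sets 1 was above the floor on all arrays, 2 were above it at passages 13 and 18 only, and 2 were under it throughout. The 3 that can be read at passages 18 and 13 gave log2 differences of 1.16, 1.06 and 1.03.

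Epha2, the main receptor for Efna1 in endothelial cells, read 58.9, 37.3 and 74.2 at passages 13, 14 and 18, a level of 5.77 ± 0.50. It was close to the floor at passage 13 and under it at passage 14. At passage 18 it was 1.26-fold above passage 13 and at least 1.53-fold higher than at passage 14. Epha3, a receptor of mesenchymal and neural cells, stayed under the floor, at 10.9, 8.98 and 15.6 by its brightest probe set, so no fold is given.

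**Figure D2:**
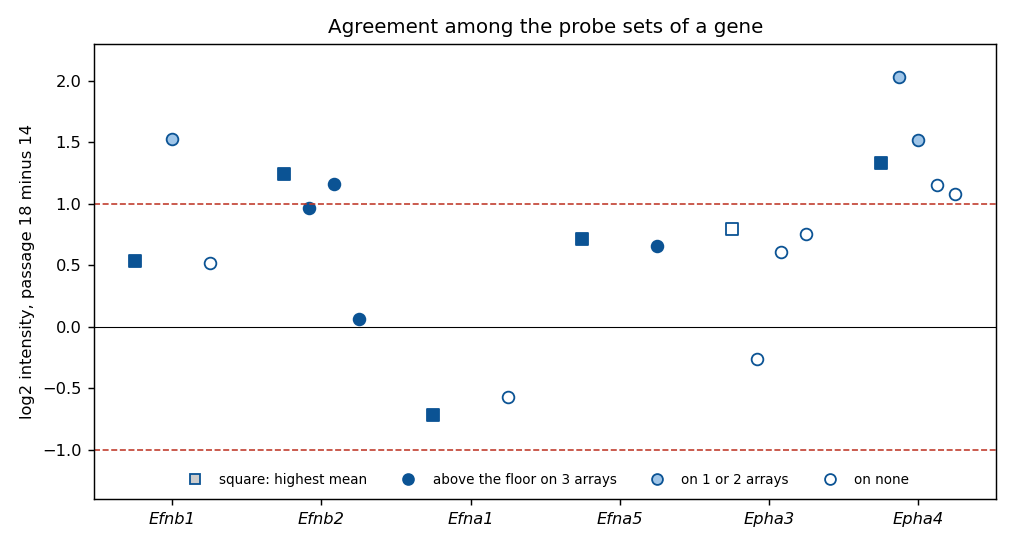
Difference in log2 intensity between passages 18 and 14 (vertical axis) for each probe set of the 6 genes that have more than 1 (horizontal axis), with shading for the number of arrays on which the probe set was above the floor and dashed lines at 2-fold. Differences of probe sets under the floor on an array are not readings of the transcript. Of the 4 Efnb2 probe sets, all above the floor, the dimmest lies at 0.06 and the brightest at 1.24.

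These differences were set against those of all detected genes. Between passages 18 and 13, 1 of the 6 detected genes differed at least 2-fold (Epha4, higher), where 4.26% of all 9116 detected genes did. Between passages 14 and 13, 1 of 6 did (Efnb1, lower), against 4.98%. Between passages 18 and 14, 2 of 6 did (Efnb2 and Epha4, both higher), against 11.7%. Ephb3 is not among the 6, since it was under the floor at passage 14, and with the floor at the 90th percentile it enters and the count for passages 18 and 13 is 2. Among detected genes with a mean log2 intensity under 8, where Epha4 and Efnb1 lie, the shares were 5.4%, 6.06% and 13.2% for the same pairs. Between passages 18 and 14, where Efnb2 was called, the share among genes with a mean of 8 or more was 10.6%. The Epha4 difference between passages 18 and 13 was larger in size than that of 97.3% of detected genes. The Efnb1 difference between passages 14 and 13 was larger than that of 97.8%. Between passages 18 and 14 the Efnb2 difference was larger than that of 92.9% and the Epha4 difference than that of 94.1%. The median difference of the 6 genes was 0.03 for passage 18 minus 13, -0.16 for 14 minus 13 and 0.62 for 18 minus 14, beside medians of -0.01, -0.01 and 0.01 over all detected genes. The 3 pairs share their cultures and are not independent of each other.

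**Figure D3:**
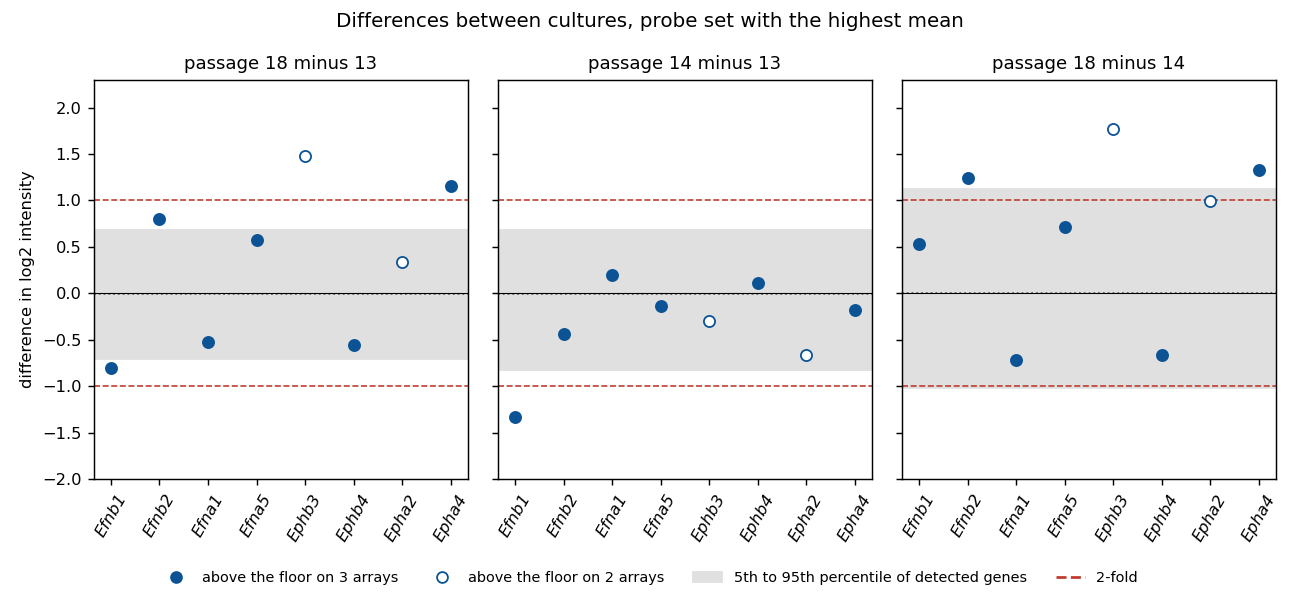
Difference in log2 intensity between pairs of cultures (vertical axis) for 8 genes (horizontal axis), each by the probe set with the highest mean, with Epha3 left out because it was under the floor on every array. The grey band spans the 5th to the 95th percentile of all detected genes and dashed lines mark 2-fold. Between passages 18 and 13, Ephb3, Epha4 and Efnb2 lie above the band and Efnb1 below it.

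In a linear trend of log2 intensity with passage number, fitted with limma to 9687 genes, 0 genes passed at a Benjamini-Hochberg adjusted p under 0.05 (0% of those tested), and 342 had an unadjusted p under 0.05. Of the 8 ephrin and Eph genes in that fit 0 passed, and 2 had an unadjusted p under 0.05. These were Ephb3, with a slope of 0.34 ± 0.09 log2 units per passage (SE), and Epha4, with 0.26 ± 0.08, both at a limma adjusted p of 0.891. Slopes of the other 6 lay between -0.13 and 0.20. Both positive slopes rest on the passage 18 culture: without it they were -0.30 for Ephb3 and -0.18 for Epha4, as values with no test. Of the 8 slopes 7 changed sign without that culture, all but that of Efnb1. Without the passage 13 culture 1 changed sign, that of Efnb1 (0.13 against -0.08), and without the passage 14 culture 0 did. The share of all 9687 fitted genes that change sign in this way was not computed, so the 7 are not a trait of these genes. With 3 arrays the fit leaves each gene 1 residual degree of freedom of its own, which limits its precision.

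Markers of other cell types moved in the same comparisons. Over all 9116 detected genes, 4394 were higher and 4675 lower at passage 18 than at 13. Of 8 measured fibroblast markers 3 were detected, 2 of them higher and 1 lower at passage 18 than at 13. The list had a summed intensity of 3112, 1778 and 4138 at passages 13, 14 and 18. Pdgfra, Dcn, Lum and Dpt were under the floor on all arrays. Col1a2 was above it at passages 13 and 18 only, at intensities of 101, 15.9 and 318, and was 3.16-fold higher at passage 18 than at 13. Of the 3 detected markers Col1a1 and Col3a1 were 4.67-fold and 3.90-fold higher at passage 18, and Thy1 was 1.45-fold lower. Of 8 mural markers 3 were detected, 2 of them higher and 1 lower in that comparison. Their list had a summed intensity of 6189, 1098 and 7347. Rgs5, Cspg4, Myh11, Des and Kcnj8 were under the floor throughout. Of the 3 detected, Pdgfrb and Acta2 were 2.65-fold and 3.61-fold higher at passage 18, and Tagln was 2.58-fold lower. Whether fibroblasts or mural cells were present in the cultures was not tested. Nor was any part of such cells, or of the RNA quality of the passage 18 array, in the differences of Efnb2, Epha4, Ephb3 and Efnb1. In such bulk samples fewer cells of a type and less RNA per cell cannot be told apart.

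Other markers of vessel type had the following values beside Efnb2 and Ephb4. Among all 9116 detected genes 4394 were higher at passage 18 than at 13. Of 10 arterial genes 5 were detected, 4 of them higher and 1 lower at passage 18 than at 13, and the list had a summed intensity of 4904, 3181 and 7022 at passages 13, 14 and 18. Nrp1, a co-receptor of VEGF, was at log2 10.16, 9.38 and 11.20, and Unc5b, a netrin receptor of arteries, at 9.92, 9.04 and 10.47. Notch4, a Notch receptor of endothelium, lay the other way, at 6.28, 7.65 and 5.73. Dll4, Gja5, Gja4 and Sox17 were under the floor on all arrays. Hey2 was above it at passage 18 alone, at intensities of 34.7, 12.2 and 90.1. Of 6 venous genes 3 were detected, 1 higher and 2 lower in the same comparison. The higher 1 was Nr2f2, by only 0.01 in log2, and it also counts among the lymphatic genes. The venous list had a summed intensity of 3310, 2884 and 2422. Of 10 pan-endothelial genes 0 were higher, and the list had a summed intensity of 19278, 18454 and 13054. Of the 7 detected lymphatic genes 2 were higher and 5 lower in that comparison (median of the 7 log2 differences -0.92), and the list had a summed intensity of 11996, 10388 and 8058. Lyve1, a hyaluronan receptor, was 8.44-fold lower there, Sox18 2.55-fold and Flt4 2.22-fold lower, whereas Foxc2 was 1.22-fold higher.

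The 12 remaining ephrin and Eph genes were all measured, and 0 of them were detected. Efna3, an A-class ligand, was above the floor at passages 13 and 18, at intensities of 55.3, 21.6 and 96.4. Efna2 was above it at passage 14 alone, at 44.0, 49.2 and 43.0. Epha1 was above it at passage 13 alone, at 50.1, 30.4 and 37.7. By their brightest probe sets Efna4, Efnb3, Epha5, Epha6, Epha7, Epha8, Epha10, Ephb1 and Ephb6 were under the floor on all arrays.

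The genes of proteins that carry Eph and ephrin signals were mostly detected. Of 42 listed signalling genes 40 were measured and 30 were detected, where 50.1% of all genes were. In 23 of the 30 the 3 arrays lay within 0.5 log2 units. The share of all detected genes within that range was not computed, so the 23 are not a trait of these genes. Values of single genes here and in the next paragraph are log2 intensities. Nck2, an adaptor that binds the phosphorylated tail of B-class ephrins, was at 8.49, 8.95 and 8.66 at passages 13, 14 and 18. Sdcbp (syntenin), which binds their PDZ-binding end, was at 13.09, 12.96 and 13.05. The Ras GTPase activator Rasa1, which binds activated EphB receptors, was at 9.12, 9.27 and 8.83. Of the proteins that link ephrin-B2 to the uptake of VEGF receptors, Dab2 was at 11.09, 10.72 and 10.91 and Pard3 at 7.72, 7.86 and 7.95.

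At least 2-fold differences were found in 0 of the 30 signalling genes between passages 18 and 13 (4.26% of all detected genes), in 2 between passages 14 and 13 (4.98%) and in 3 between passages 18 and 14 (11.7%). Vav3, an exchange factor for Rac that acts below Eph receptors, was at log2 7.97, 9.02 and 7.51 and was highest at passage 14. Inppl1, a lipid phosphatase that binds Epha2, was also highest there, at 6.14, 7.27 and 6.37. Vav2 was at log2 7.75, 7.23 and 8.29, highest at passage 18. Prkci, an atypical protein kinase C that works with Pard3, was at log2 10.54, 10.02 and 11.02, also highest there. Arhgef15, a guanine nucleotide exchange factor of vascular cells, was at log2 8.52, 8.71 and 8.01. The median difference of the 30 genes was -0.05 for passage 18 minus 13, 0.10 for 14 minus 13 and 0.003 for 18 minus 14. Of the 31 signalling genes in the limma trend 0 passed, and 0 had an unadjusted p under 0.05.

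**Figure D4:**
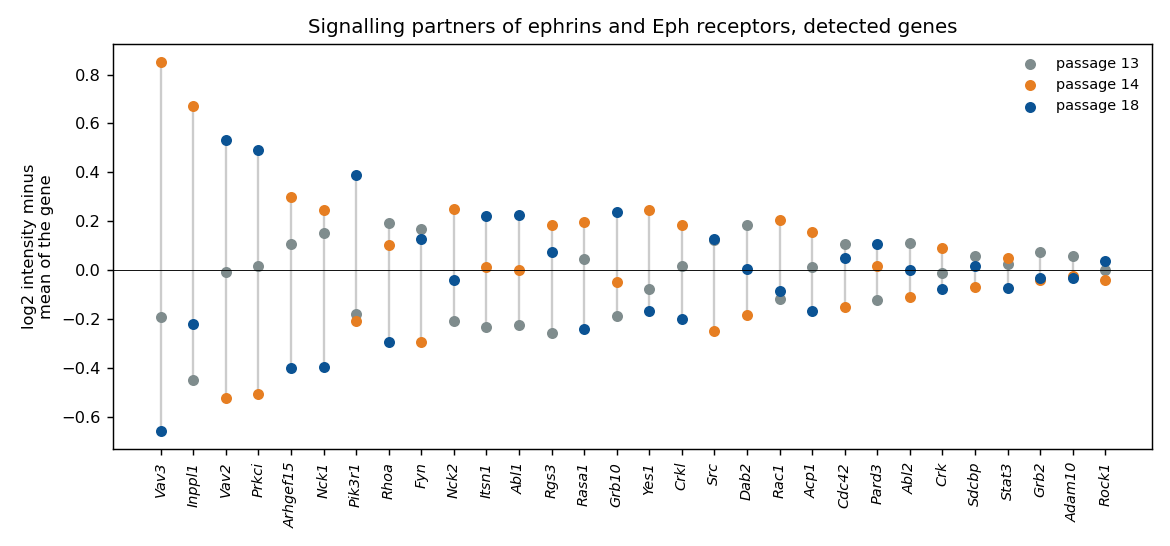
Log2 intensity minus the mean of the gene over the 3 arrays (vertical axis) for the 30 detected signalling genes (horizontal axis), ordered from the widest to the narrowest range, with 1 point for each passage. Vav3, Inppl1, Vav2 and Prkci span at least 1 log2 unit, and 23 genes span less than 0.5.

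The detected genes most like Efnb2, Epha4 and Efnb1 were sought by the Euclidean distance between log2 values centred on each gene's mean over the 3 arrays. With 3 arrays many genes come close, and the distances are descriptions. For Efnb2 the nearest were Cd24a, a surface glycoprotein, Ago3, an Argonaute protein, and Zfp866, a zinc finger gene, at distances of 0.01, 0.01 and 0.02 log2 units, and 145 genes lay within 0.2. For Epha4 they were Sbk1, the transcription factor gene Nfix and Ctnnd2, a catenin, at 0.05, 0.07 and 0.07, with 40 genes within 0.2. For Efnb1 they were St7l, Rgs20, a regulator of G protein signalling, and Spn, a sialoglycoprotein of leukocytes, at 0.07, 0.08 and 0.09, with 18 genes within 0.2. Spn was at log2 7.08, 5.76 and 6.18 at passages 13, 14 and 18.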

How the data were processed

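RNA of 3 imLEC cultures was extracted in parallel, amplified by a single round of linear isothermal amplification (SPIA) and biotin-labelled as cDNA, per the labels' protocols. The deposited values are linear signal intensities, 1 for each probe set on each array. MAS5 is named in the submitters' processing notes, without role or version, and no label or header says how the authors computed the intensity from the scans. Array medians lay between 25.7 and 26.3, so the values were not normalized again. Of 45101 probe sets the platform annotation gave 1 gene to 34958, several to 932 and none to 9211. Symbols were updated through Entrez identifiers to RefSeq genes of GRCm38.p6 (34754 matched). Where a gene had several probe sets, the brightest by mean log2 intensity stood for it. The floor was the 95th percentile, on each array, of 47 genes expressed in other tissues alone (such as albumin), of which 3 passed as detected. Differences were called at 2-fold. For the passage trend limma 3.58.1 was run in R 4.3.3, with lmFit and then eBayes with an intensity trend, on genes whose mean lay above the mean floor. A run on simulated data gave all 9687 genes the same spread and some of them slopes of 0.5 or 2. It called 100% of these, with 7 false calls. The simulated slopes exceed the largest of the members (0.34) and real spreads differ among genes. The run therefore does not show what the fit could find here. Each p-value sets a slope against the departure of the 3 values from a straight line. The variance used is shared across genes (a prior of 2.7 degrees of freedom beside the 1 of each gene). It does not measure the spread between cultures of the same passage. Named genes are the 10 members, the other family genes, and of the signalling list the 5 detected genes with the widest range plus Nck2, Sdcbp, Dab2, Pard3 and Rasa1. For each detected member with a range of at least 1 log2 unit, the 3 nearest genes are named too. The members and lists were chosen with earlier results of these data known. Alternatives were the floor percentile, the probe set rule, quantile normalization, median centring, adding 16 before log2, no filter, passage 18 against the mean of the others and leaving out each culture. The keratinocyte list had 2 of 7 genes detected, the neural and glial list 1 of 5 and the housekeeping list 10 of 10.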

Additional observations from a re-analysis of the deposited data

How the results depend on the processing

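The number of detected genes among the 9 measured was 8 with the floor at the 90th percentile, 3 at the 99th, 7 with the median of probe sets, 5 without probe sets shared among transcripts or genes, and 6 with quantile normalization, median centring or 16 added. Leaving out each culture gave between 6 and 8. Shared probe sets were dropped only where a gene had another, so Ephb4 and Epha2 kept theirs. The count at 2-fold or more between passages 18 and 13 was 2 at the 90th percentile, 2 by the median of probe sets, 2 with the floor computed without Apoa2 (chosen after seeing the data), and 0 with the floor at the 99th percentile. Ephb3 is detected under the first 3 of these settings. Between passages 14 and 13 it was 0 with the floor at the 99th percentile, with the median of probe sets and without shared probe sets, where Efnb1 is not among the detected genes, and between passages 18 and 14 it was 1 with the floor at the 99th percentile and 3 with the floor at the 90th percentile, the median of probe sets or the floor without Apoa2. A higher floor leaves fewer genes to count, and the other changed counts at 2-fold go with Ephb3 entering or Efnb1 leaving the detected genes. The passage trend called 0 genes under every alternative run (9 in all), with 255 to 697 at an unadjusted p under 0.05. Of 135 differences of single genes recomputed under alternatives, 134 kept their direction, and the 1 that did not was of Epha3. That count says little about robustness, because many of these differences could not change direction. Adding 16 keeps the order of the arrays, and without shared probe sets only Efnb1 takes other values. The count also includes Epha3, which was under the floor on every array. Levels of Efnb1, Efna1, Epha3 and Epha4 moved by more than their SD with the median of probe sets. Without 1 of the 3 cultures the trend has no residual degrees of freedom and gives no test. No paired analysis was possible because there is a single group.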

Other observations

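A pair of genes outside the main list had probe sets that differed in what they reported, and they were chosen after their values were seen. Epha7, an A-class receptor, was under the floor by its brightest probe set (26.4, 26.3 and 37.6 at passages 13, 14 and 18), while another of its 4 probe sets read 16.1, 8.11 and 51.9 and was above the floor at passage 18 alone. Efna3, an A-class ligand, was at least 1.99-fold higher at passage 18 than at 14 against the floor, and its other probe set, under the floor throughout, read 20.8, 23.8 and 41.7.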
